A study of Homo sapiens with 8 samples.

Results

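The translation factors are the proteins that bring the ribosome to an mRNA, carry it along the coding sequence and release the finished chain, and 56 genes that encode them, chosen by symbol and role, were followed in human embryonic stem cells (hESCs) in which a secreted glycoprotein was blocked. The 56 genes are those of the initiation factors eIF1 to eIF6 with their kinases and binding proteins, the cytoplasmic poly(A)-binding proteins, the elongation factors with the kinase of eEF2, and the release factors, out of 62086 genes in the count table. All 56 were among the 20165 genes with enough counts to be tested. The cells were of the established hESC line BG01, grown in mTeSR medium, and received 5 µg/mL of anti-M8nAb, an antibody that neutralizes MFG-E8, for 12 or 24 h, or the same dose of normal mouse IgG as isotype control for the same time. Each of the 4 groups (anti-M8nAb at 12 h, IgG at 12 h, anti-M8nAb at 24 h and IgG at 24 h) held 2 libraries of total RNA, labelled as biological replicates. All of them come from 1 cell line, and nothing says whether the 2 replicates were grown as separate cultures, so a p-value sets a difference against the spread of these libraries, which may be technical.

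In textbook terms, initiation starts when eIF2 bound to GTP hands the initiator tRNA to the small ribosomal subunit, while eIF3 holds the subunit and the eIF4F complex (eIF4E at the cap, the scaffold eIF4G and the helicase eIF4A) recruits the mRNA. The supply of active eIF2 depends on the exchange factor eIF2B, which stress kinases block by phosphorylating eIF2. After start codon recognition eEF1A delivers the aminoacyl-tRNAs, eEF2 moves the ribosome on and eRF1 with eRF3 ends the chain. Many mRNAs of elongation factors and of ribosomal proteins begin with a C and a run of pyrimidines, the 5′ terminal oligopyrimidine (TOP) tract, through which the kinase mTOR and the protein LARP1 control their translation and stability.

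Each library held between 21010400 and 21792716 counts over genes, and biological variation between replicates came to 5.53% of a gene's level (common value of edgeR). The labelled cell type was checked on 8 pluripotency genes (POU5F1, NANOG, LIN28A, DNMT3B, TDGF1, DPPA4, L1TD1 and ZFP42), whose summed level in CPM (counts scaled to library size, with TMM factors throughout) was 7752 and 7791 CPM with anti-M8nAb against 6852 and 7025 CPM with IgG at 12 h, and 6397 and 6590 CPM against 6003 and 6069 CPM at 24 h. At 12 h 6 of these 8 genes were called higher and 0 lower. At 24 h 3 were higher, namely POU5F1 (log2 change 0.25), LIN28A (0.19) and DPPA4 (0.32), and 2 lower, NANOG (-0.25) and ZFP42 (-0.48). NANOG was among those called higher at 12 h (0.25). Of the fibroblast, endoderm, mesoderm and neural genes, DCN, LUM, SOX17, GATA6, MESP1, HAND1 and NEUROG2 were too low to be tested. The 8 fibroblast genes summed to 126 to 140.3 CPM with anti-M8nAb against 143.2 to 145.7 CPM with IgG at 12 h, and to 169.2 to 174.6 CPM against 173.7 to 190.7 CPM at 24 h, with COL1A2 called lower (log2 change -0.60 at 12 h and -1.09 at 24 h) and PDGFRB higher (0.38 and 0.68). The 5 endoderm genes summed to 10.01 to 15.05 CPM against 7.79 to 8.55 CPM at 12 h and to 15.2 to 15.4 CPM against 6.56 to 8.53 CPM at 24 h. Of them 2 were called higher at 12 h, and at 24 h CXCR4 (1.97) and AFP (1.36) were called higher and FOXA2 (-2.03) lower. The 5 neural genes summed to 45.0 to 46.0 CPM against 34.5 to 37.0 CPM at 12 h and to 40.1 to 42.4 CPM against 25.8 to 29.1 CPM at 24 h. Of them 3 were called higher and 1 lower at 12 h, and at 24 h MAP2 (0.68) was called higher and DCX (-1.42) lower. The 5 mesoderm genes stayed under 3 CPM in sum in every library, with EOMES called higher at 12 h (2.22) and MIXL1 lower at 24 h (-1.51). The part of any of these 5 lists in the results for translation factors was not tested. In such bulk RNA, fewer cells of a type and less RNA per cell cannot be told apart.

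The first bases at annotated starts are shown here because the responses are described further on by whether a pyrimidine run stands there. The starts used in these cells were not measured. EEF1G, named further on among known TOP mRNAs, has no such run at its annotated start. RefSeq promoter windows (build GRCh38.p14, 250 bases before to 50 after each annotated start) were matched by symbol to 44 of the 56 genes, and were not matched for EIF2S2, EIF2AK1, EIF3A, EIF3E, EIF3G, EIF3H, EIF3L, EIF4EBP1, PABPC1, PABPC4, EEF1A2 and EEF1D. A pyrimidine start was defined as a C at the annotated start followed by at least 4 further pyrimidines on the coding strand. It was found in 11 of the 44 genes (25.0%), against 5.14% of all 27305 symbols in the table and 7.04% of those tested. For each of these 11 genes 30 bases are printed, 15 before and 15 from the annotated start, with the run of pyrimidines at that start in capitals. Of the 11 genes EEF1B2 alone has a second annotated start in the table (206159609), which has no such run, and its printed run goes on for 1 base beyond the window, to 16 bases.
EEF1A1 (chr6:73521018-73521047, minus strand): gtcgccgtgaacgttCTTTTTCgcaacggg
EEF1B2 (chr2:206159880-206159909, plus strand): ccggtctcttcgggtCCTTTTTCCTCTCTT
EEF2 (chr19:3985449-3985478, minus strand): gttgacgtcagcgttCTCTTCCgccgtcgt
EIF4B (chr12:53006441-53006470, plus strand): ttgcctcatccgggtCTTTTgcgttctctt
EIF4A2 (chr3:186783562-186783591, plus strand): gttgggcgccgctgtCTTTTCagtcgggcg
EIF3D (chr22:36529152-36529181, minus strand): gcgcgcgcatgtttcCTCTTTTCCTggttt
EIF3F (chr11:7987322-7987351, plus strand): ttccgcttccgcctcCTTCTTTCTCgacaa
EIF2A (chr3:150546772-150546801, plus strand): tcacccgagcggtttCTCTTTCCgggacaa
EIF3K (chr19:38619173-38619202, plus strand): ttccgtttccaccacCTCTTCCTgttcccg
EIF3M (chr11:32583816-32583845, plus strand): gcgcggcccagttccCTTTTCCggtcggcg
EIF2S3 (chrX:24054941-24054970, plus strand): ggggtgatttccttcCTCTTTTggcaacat

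The starts of 3 members that fell and have no pyrimidine start are given in the same way. EIF5 has 2 annotated starts, and no base is in capitals in these 4 windows. They were picked and do not stand for all members. EIF3M fell at both times and EIF2S3 at 24 h, each with a run printed above. Of the 33 members with another start 3 rose and 8 fell at 12 h, and 8 rose and 10 fell at 24 h.
EIF5, start 103334237 (chr14:103334222-103334251, plus strand): gcggcggcgttgttcagtcagagcgagaac
EIF5, start 103334888 (chr14:103334873-103334902, plus strand): atcccggcacccctcggccgtgtgtcgctt
EIF2S1 (chr14:67360313-67360342, plus strand): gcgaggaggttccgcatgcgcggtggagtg
EEF2K (chr16:22206263-22206292, plus strand): tgcccgcccgcttctgctcaacctagacca

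The comparison of anti-M8nAb with IgG asked which translation factor genes change when MFG-E8 is blocked. At 12 h 12 of the 56 genes (21.4%) were higher, 11 (19.6%) were lower and 33 passed in neither direction at an adjusted p under 0.05 (edgeR quasi-likelihood test, Benjamini-Hochberg over all genes tested). Over all genes tested 15.8% were higher and 16.4% lower at that time, and among genes with a mean of at least 10 FPKM (the authors' fragments scaled to exon length and library size), a range that holds most members, 25.5% were higher and 17.7% lower. At 24 h 19 members (33.9%) were higher, 14 (25.0%) lower and 23 in neither direction, against 21.2% of all genes higher and 21.3% lower, and 31.0% and 23.5% of the genes of at least 10 FPKM. These shares lie near those of genes of like level and are no result about the factors as a whole. Counts given further on for a role group or another list are to be read against the shares of all genes and of genes of like level. No member was called with a change of at least 2-fold at 12 h, when 3.4% of all genes were so called upward and 2.97% downward, and 1, EIF5, was called with such a fall at 24 h. The median log2 change (log2 of anti-M8nAb over IgG) of the members was 0.06 at 12 h and 0.05 at 24 h (0.0015 and 0.0034 over all genes), and it turned to -0.001 and -0.0413 when libraries were scaled by their total counts.

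Scaling mattered for such small changes. Factors of the TMM method (trimmed mean of M values) lay between 0.966 and 0.979 in anti-M8nAb libraries and between 1.01 and 1.04 in IgG libraries, so that scaling by total counts lowered the median of all genes by 0.059 at 12 h and 0.084 at 24 h on the log2 scale, against near 0 with TMM. On total counts 7 members rose and 13 fell at 12 h, and 8 rose and 18 fell at 24 h, and limma on log2(FPKM + 1), with genes of a mean of at least 0.5 FPKM, gave 6 and 13, and 8 and 16. The calls that total counts ended were those of EIF3D, EIF4H, EIF4G2, EIF5A and EEF1B2 at 12 h, and of EIF1, EIF2A, EIF3D, EIF3E, EIF4E, EIF4G2, EIF4G3, EIF5A, EIF6, EEF1B2 and EEF1D at 24 h. EIF4A2, EIF4B, PABPC1, EEF1A1 and EEF2 were called higher at both times in both of these alternatives. Leaving out 1 library moved the 12 h counts furthest. Without IgG 12 h replicate 1 there were 7 higher, and there were 7 lower without anti-M8nAb 12 h replicate 1, 6 without anti-M8nAb 12 h replicate 2 and 5 without IgG 12 h replicate 2. In all, 11 of the 23 calls at 12 h and 13 of the 33 at 24 h were lost when some 1 library was left out, and those of named genes are given beside them. No call of a member turned its direction in any alternative run.

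At both times 12 members were higher: EIF3D, EIF3F, EIF4A2, EIF4B, EIF4H, EIF4G2, PABPC1, EIF5A, EEF1A1, EEF1B2, EEF1D and EEF2. Another 8 were lower at both times, namely EIF5B, EIF3M, EIF4A3, EIF4EBP1, EEF1A2, EEF2K, ETF1 and GSPT1. The shares of all genes with these patterns were 10.1% and 10.7%. EIF2B2, EIF2B3 and EIF2B4 were lower at 12 h and passed in neither direction at 24 h, and 20 members passed at neither time. No member was higher at one time and lower at the other. Each time has control libraries of its own. Among all genes tested both antibody libraries lay above both IgG libraries in 32.9% at 12 h and 34.8% at 24 h, and below them in 33.3% and 34.2%, and non-overlap of 2 libraries with 2 is to be read against these shares.

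**Figure D1:**
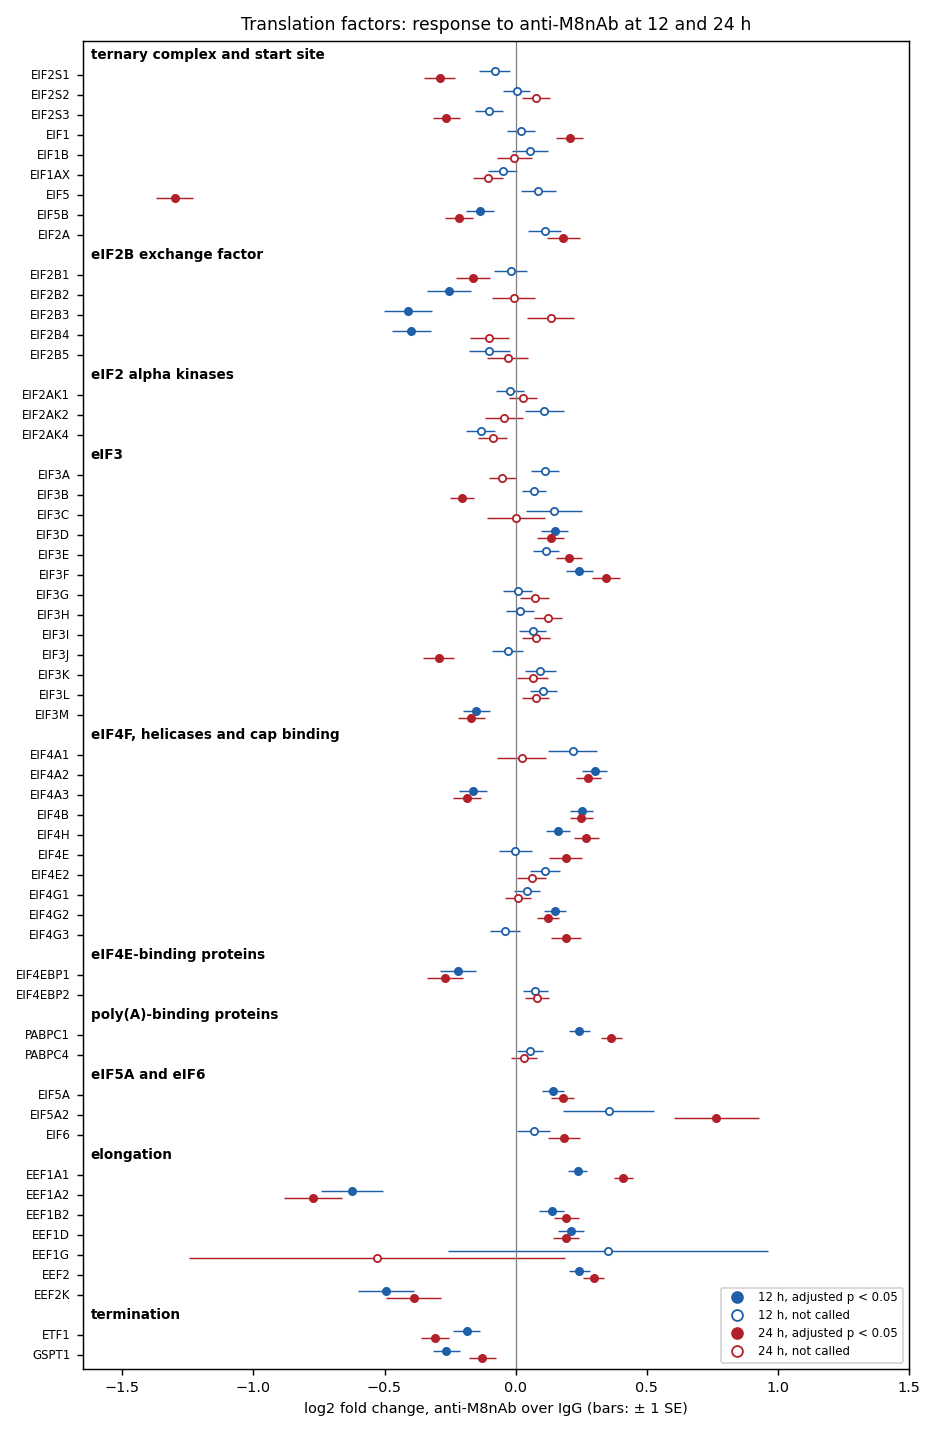
Log2 fold change of the 56 genes, anti-M8nAb over IgG, on the horizontal axis with bars of 1 SE, 12 h in blue and 24 h in red, by role from top to bottom; filled points passed an adjusted p under 0.05. EIF5 at 24 h lies at -1.30, EEF1A2 at -0.62 and -0.77, and most other filled points within 0.5 of 0, a range in which the scaling decides part of the calls (12 higher and 11 lower at 12 h with TMM, 7 and 13 on total counts).

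Elongation factors gave the most abundant of the rising transcripts. Of the 7 elongation genes 4 were higher and 2 lower at both times, and on total counts 3 and then 2 were higher, with the same 2 lower. With TMM 25.5% of genes of at least 10 FPKM were higher and 17.7% lower at 12 h, and 31.0% and 23.5% at 24 h. EEF1A1, on chromosome 6 (73489308 to 73525587), encodes the main eEF1A, the GTPase that brings aminoacyl-tRNA to the ribosome. Its level was 5857 and 5549 CPM with anti-M8nAb against 4846 and 4837 CPM with IgG at 12 h. At 24 h it was 6189 and 6251 CPM against 4706 and 4654 CPM, and at each time the antibody libraries were the higher ones, without overlap. The log2 change was 0.24 (adjusted p = 8.7e-07, SE 0.04) at 12 h and 0.41 (adjusted p = 4.3e-13, SE 0.04) at 24 h, a gain of 17.8% and 32.9%. The response was larger at 24 h by 0.17 on the log2 scale (adjusted p = 0.016, SE 0.05). That last call was lost when any 1 of 5 libraries was left out (anti-M8nAb 12 h replicate 2, either IgG 12 h replicate, anti-M8nAb 24 h replicate 2 or IgG 24 h replicate 2), with values of 0.13 to 0.17.

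Reads of EEF1A1 can also be assigned to its 49 annotated pseudogenes. These took 243 and 451 CPM in the anti-M8nAb libraries against 149 and 146 CPM in the IgG libraries at 12 h, and 187 and 193 CPM against 133 and 147 CPM at 24 h. Anti-M8nAb 12 h replicate 2, in which they reached 8.13% of the EEF1A1 counts against 2.84 to 4.15% in the other 7 libraries, stood apart for the annotated pseudogenes of all genes as well, at 5560 CPM against 2662 to 3823 CPM in the others. Their part in the EEF1A1 result was not tested.

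EEF2, on chromosome 19 (3976056 to 3985463), encodes the translocase eEF2. It stood at 3169 and 2970 CPM with anti-M8nAb against 2586 and 2599 CPM with IgG at 12 h, and at 3323 and 3231 CPM against 2558 and 2775 CPM at 24 h. The antibody libraries were again the higher ones at both times, by a log2 change of 0.24 (adjusted p = 5.4e-06, SE 0.04) and 0.30 (adjusted p = 6.1e-08, SE 0.04). The exchange factor genes for eEF1A moved with them. EEF1B2 was higher by 0.14 at 12 h and 0.19 at 24 h, and EEF1D by 0.21 and 0.19, with SEs of 0.05. The 12 h call of EEF1B2 was lost without anti-M8nAb 12 h replicate 1 or either IgG 12 h replicate (0.10 to 0.15). Of the EEF1D exons 34.0% overlap a gene on the other strand, and 16.4% of the EEF1B2 exons overlap a gene on the same strand, and whether the counting used strand is not given in the sources used here. EEF1G, the third subunit gene, had only 4 to 13 counts in a library. Of its exons 99.7% are shared with an annotated read-through gene, which itself held 21 to 42 counts, and the level of EEF1G could not be judged.

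The kinase of eEF2 went the other way. EEF2K, on chromosome 16 (22206278 to 22288738), encodes the calcium-dependent kinase that phosphorylates eEF2 and slows elongation. It was at 21.6 and 24.5 CPM with anti-M8nAb against 30.3 and 34.7 CPM with IgG at 12 h, and at 26.8 and 21.3 CPM against 32.4 and 30.6 CPM at 24 h. All antibody libraries lay below all IgG libraries of their time. The log2 change was -0.50 (adjusted p = 2.7e-04, SE 0.11) at 12 h and -0.39 (adjusted p = 0.0025, SE 0.11) at 24 h, and without anti-M8nAb 24 h replicate 2 the later value was -0.23 and was not called.

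EEF1A2 encodes the second eEF1A, known from neurons and muscle, on chromosome 20 (63488013 to 63499239). It was at 14.2 and 12.2 CPM with anti-M8nAb against 21 and 19.7 CPM with IgG at 12 h, and at 17.9 and 15.9 CPM against 27.4 and 30.5 CPM at 24 h. In every antibody library it was below every IgG library of either time, with log2 changes of -0.62 (adjusted p = 4.9e-05, SE 0.12) and -0.77 (adjusted p = 2.2e-07, SE 0.11). In the IgG cells alone it was higher at 24 h than at 12 h by 0.51 (adjusted p = 0.0011, SE 0.11). EEF1A2 made up 0.504 and 0.456% of the summed FPKM of EEF1A1 and EEF1A2 with anti-M8nAb against 0.896 and 0.842% with IgG at 12 h, and 0.6 and 0.529% against 1.2 and 1.35% at 24 h.

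**Figure D2:**
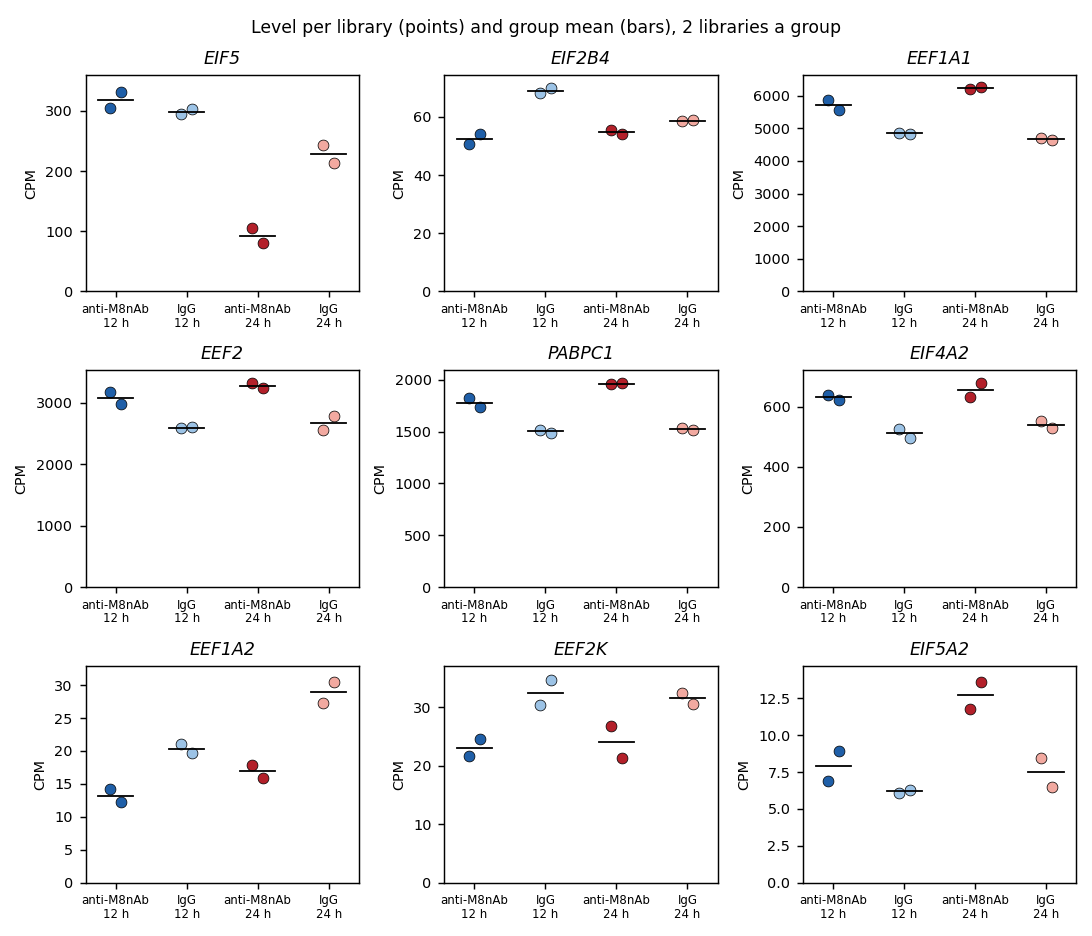
Level in CPM (counts scaled to library size with TMM factors, axis from 0) of 9 genes in the 8 libraries, with a point for each library and a bar at the mean of the 2 libraries; within each time anti-M8nAb stands left of IgG. The 2 anti-M8nAb libraries at 24 h hold 105 and 80.1 CPM of EIF5, below all other libraries, while EEF1A1, EEF2, PABPC1 and EIF4A2 lie above their IgG libraries at both times and EEF1A2, EEF2K and EIF2B4 below them.

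The 2 termination genes fell at both times, as did 10.7% of all genes tested. ETF1 encodes eRF1, which reads the stop codon, and had 253 and 248 CPM with anti-M8nAb against 278 and 292 CPM with IgG at 12 h, and 214 and 203 CPM against 262 and 254 CPM at 24 h. Its log2 change was -0.19 (adjusted p = 0.0046, SE 0.05) and -0.31 (adjusted p = 5.0e-06, SE 0.05), and the 12 h call was lost without anti-M8nAb 12 h replicate 2 or IgG 12 h replicate 2 (-0.17 to -0.14). GSPT1 encodes eRF3a, the GTPase that acts with eRF1. It had 247 and 249 CPM against 296 and 300.2 CPM at 12 h, and 276 and 261 CPM against 301 and 285 CPM at 24 h. The antibody libraries were lower at both times, by -0.26 (adjusted p = 6.6e-05, SE 0.05) and -0.13 (adjusted p = 0.042, SE 0.05), and the later call was lost when any 1 of 4 libraries was left out (either IgG 12 h replicate, anti-M8nAb 24 h replicate 2 or IgG 24 h replicate 1), with values of -0.13 to -0.09.

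EIF5 showed the largest change of the 56 genes and the sharpest difference between the times. It encodes eIF5, the GTPase-activating protein that lets eIF2 release the initiator tRNA at the start codon, and lies on chromosome 14 (103333544 to 103345025). At 12 h its level was 304 and 331 CPM with anti-M8nAb against 295 and 303 CPM with IgG, with a log2 change of 0.09 (adjusted p = 0.35, SE 0.07). At 24 h it was 105 and 80.1 CPM with anti-M8nAb against 244 and 213 CPM with IgG, a fall of 59.4% (log2 change -1.30, SE 0.07, adjusted p = 1.3e-19). The response at 24 h differed from that at 12 h by -1.39 (adjusted p = 1.2e-14, SE 0.10). In IgG cells the transcript was lower at 24 h than at 12 h too, by -0.39 (adjusted p = 6.5e-05, SE 0.07), which DESeq2 and limma did not call. Across all genes tested 4.84% were called with a fall of at least 2-fold at 24 h, and 0.88% of the genes of at least 10 FPKM.

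Around EIF5, the other genes of start site selection moved little and in different directions. Of the 9 genes of the ternary complex and start site, EIF5 included, 0 rose and 1 fell at 12 h. At 24 h 2 rose and 4 fell, EIF5 being 1 of the 4. On total counts 0 of the 9 rose at either time, and 2 and then 5 fell. For genes of at least 10 FPKM the later shares with TMM stood at 31.0% for rises and 23.5% for falls. The earlier shares stood at 25.5% and 17.7%. EIF2S3, the gamma subunit of eIF2, which binds GTP and the tRNA, was at 244 and 232 CPM with anti-M8nAb against 258 and 252 CPM with IgG at 12 h, and at 215 and 204 CPM against 252 and 250 CPM at 24 h. It fell at 24 h by 0.26 on the log2 scale (adjusted p = 6.0e-05, SE 0.05), and EIF2S1, the alpha subunit that the stress kinases phosphorylate, fell by 0.29 (adjusted p = 9.5e-05, SE 0.06). The beta subunit EIF2S2 had log2 changes of 0.00 at 12 h and 0.08 at 24 h and passed at neither time. EIF5B, which joins the ribosomal subunits, was lower by -0.14 at 12 h (adjusted p = 0.043) and -0.22 at 24 h (adjusted p = 8.5e-04), and its 12 h call was lost without any 1 of the 4 libraries of that time (-0.15 to -0.11).

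EIF1, a factor that guards against wrong start codons, was at 266 and 286 CPM with anti-M8nAb against 276 and 269 CPM with IgG at 12 h, where the libraries overlapped, and at 331 and 369 CPM against 304 and 302 CPM at 24 h, where they did not. The log2 change at 24 h was 0.21 (adjusted p = 0.0014, SE 0.05). Its paralogue EIF1B had 90.2 and 95.5 CPM against 94.3 and 92 CPM at 24 h and passed at neither time, with 71.4 and 76.9 CPM against 72.4 and 70.4 CPM at 12 h. EIF2A, a separate protein that can bring initiator tRNA without eIF2, was higher at 24 h by 0.18 (adjusted p = 0.017, SE 0.06). The EIF1 call was lost without anti-M8nAb 24 h replicate 2 (0.13), and the EIF2A call without it or IgG 24 h replicate 2 (0.11 to 0.16). EIF1AX passed at neither time.

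The 5 genes of eIF2B, the factor that reloads eIF2 with GTP, had 3 that fell at 12 h and 1, a different one, that fell at 24 h. Over all genes tested 16.4% fell at 12 h and 21.3% at 24 h. EIF2B4 (delta subunit) was at 50.6 and 54.1 CPM with anti-M8nAb against 68 and 70 CPM with IgG at 12 h, and at 55.4 and 54 CPM against 58.5 and 58.8 CPM at 24 h. The log2 change was -0.40 (adjusted p = 3.1e-05, SE 0.07) at the earlier time and -0.10 (adjusted p = 0.29, SE 0.07) at the later one. EIF2B3 (gamma subunit, part of the catalytic core) was at 28.5 and 27.7 CPM against 37.7 and 36.9 CPM at 12 h, and at 34 and 36.2 CPM against 33.3 and 30.8 CPM at 24 h. Its antibody libraries were below the IgG libraries at 12 h and above them at 24 h. The log2 changes were -0.41 (adjusted p = 4.3e-04, SE 0.09) and 0.13 (adjusted p = 0.24, SE 0.09), and the difference between the responses, 0.54 (SE 0.13), passed at an adjusted p of 0.0027. For EIF2B4 that difference was 0.30 (adjusted p = 0.052, SE 0.10) and for EIF2B2, lower at 12 h by -0.25 (adjusted p = 0.014, SE 0.08), it was 0.25 (adjusted p = 0.17, SE 0.12).

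EIF2B1 (alpha subunit) passed only at 24 h, with a log2 change of -0.16 (adjusted p = 0.036, SE 0.06), and EIF2B5, the catalytic epsilon subunit, at neither time. Genes on the other strand overlap 23.6% of the exons of EIF2B2, 15.6% of EIF2B1 and 10.2% of EIF2B3. The 12 h call of EIF2B2 was lost without anti-M8nAb 12 h replicate 1 or either IgG 12 h replicate (-0.25 to -0.18), and the 24 h call of EIF2B1 when any 1 of 5 libraries was left out (either anti-M8nAb 12 h replicate, either anti-M8nAb 24 h replicate or IgG 24 h replicate 1, -0.16 to -0.13), while those of EIF2B3 and EIF2B4 held in every alternative run. None of the 3 eIF2 alpha kinases among the members passed at either time. EIF2AK1, the kinase HRI, had log2 changes of -0.02 and 0.03, EIF2AK2, the kinase PKR, 0.11 and -0.04, and EIF2AK4, the kinase GCN2, -0.13 (adjusted p = 0.062) and -0.09. On total counts EIF2AK4 was called lower at both times.

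The 13 subunit genes of eIF3 did not move as a block. At 12 h 2 rose (15.4%) and 1 fell (7.69%), and at 24 h 3 rose and 3 fell (23.1% each). Among genes of at least 10 FPKM 25.5% rose and 17.7% fell at 12 h, and 31.0% and 23.5% at 24 h. On total counts 1 of the 13 rose each time, and 1 and then 4 fell. EIF3F, one of the MPN-domain subunits, was at 304 and 306 CPM with anti-M8nAb against 268 and 247 CPM with IgG at 12 h, and at 326 and 354 CPM against 262 and 274 CPM at 24 h. Its libraries did not overlap at either time, and its log2 change of 0.24 (adjusted p = 3.2e-04, SE 0.05) and 0.34 (adjusted p = 7.0e-07, SE 0.05) was the largest rise in the complex. EIF3D, which can itself bind the cap, rose by 0.15 and 0.13, and EIF3E by 0.20 at 24 h (adjusted p = 8.2e-04, SE 0.05). The EIF3E call was lost without anti-M8nAb 24 h replicate 2 (0.14). Those of EIF3D were lost without any 1 library of 12 h at that time (0.15 to 0.16), and at 24 h when any 1 of 5 libraries was left out (either IgG 12 h replicate, either anti-M8nAb 24 h replicate or IgG 24 h replicate 2, 0.11 to 0.14).

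EIF3B, a core scaffold subunit, was at 492 and 492 CPM with anti-M8nAb against 464 and 473 CPM with IgG at 12 h, and at 418 and 412 CPM against 474 and 481 CPM at 24 h. It was thus above its controls at the earlier time, by a log2 change of 0.07 that did not pass (adjusted p = 0.26), and below them at the later one, by -0.20 (adjusted p = 3.6e-04, SE 0.05). The difference of the responses was -0.27 (adjusted p = 0.0029, SE 0.07). EIF3J, the loosely bound subunit that sits near the mRNA channel, was at 147 and 142 CPM against 142 and 153 CPM at 12 h, and at 103 and 107 CPM against 133 and 124 CPM at 24 h. It fell at 24 h by 0.29 (adjusted p = 9.8e-05, SE 0.06), with a difference of the responses of -0.26 (adjusted p = 0.032, SE 0.08) that was not called (-0.24 to -0.22) without anti-M8nAb 12 h replicate 1, IgG 12 h replicate 1, anti-M8nAb 24 h replicate 1 or IgG 24 h replicate 1.

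EIF3M fell by 0.15 at 12 h (adjusted p = 0.022) and by 0.17 at 24 h (adjusted p = 0.0071), the earlier call being lost without any 1 library of that time (-0.15 to -0.14) and the later one without anti-M8nAb 24 h replicate 1 (-0.14). EIF3A, EIF3C, EIF3G, EIF3H, EIF3I, EIF3K and EIF3L passed at neither time, with log2 changes between -0.05 for EIF3A at 24 h and 0.15 for EIF3C at 12 h. EIF3C is nearly identical in sequence to EIF3CL, which held 147 to 167 counts at 12 h and 96 to 161 counts at 24 h, so its own count is uncertain. For EIF3L 41.1% of the exons are shared with another gene on the same strand.

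Among the 10 genes of eIF4F, its helicases and cap-binding proteins, 4 rose and 1 fell at 12 h, and 6 rose and 1 fell at 24 h. On total counts 2 and then 3 rose, and 1 fell each time. With TMM 25.5% of genes of at least 10 FPKM rose and 17.7% fell at 12 h, and 31.0% and 23.5% at 24 h. EIF4A2, on chromosome 3 (186783205 to 186789897), encodes an eIF4A helicase. It was at 638 and 624 CPM with anti-M8nAb against 527 and 496 CPM with IgG at 12 h, and at 631 and 678 CPM against 552 and 528 CPM at 24 h. All antibody libraries lay above all IgG libraries, with log2 changes of 0.30 (adjusted p = 2.0e-06, SE 0.05) and 0.28 (adjusted p = 5.4e-06, SE 0.05). The introns of the gene hold small nucleolar RNAs that overlap 10.5% of its annotated exons.

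The helicase partners EIF4B and EIF4H rose with it. EIF4B, which stimulates eIF4A, was at 1385 and 1261 CPM with anti-M8nAb against 1090 and 1131 CPM with IgG at 12 h, and at 1296 and 1289 CPM against 1106 and 1067 CPM at 24 h. Both times the antibody libraries were the higher ones, by 0.25 (adjusted p = 1.3e-05, SE 0.04) and 0.25 (adjusted p = 8.6e-06, SE 0.04). A gene on the other strand overlaps 12.4% of its exons. EIF4H was at 546 and 523 CPM against 473 and 483 CPM at 12 h, and at 567 and 552 CPM against 462 and 466 CPM at 24 h, with log2 changes of 0.16 (adjusted p = 0.0060, SE 0.05) and 0.27 (adjusted p = 5.3e-06, SE 0.05). Its 12 h call was lost without anti-M8nAb 12 h replicate 1 or IgG 12 h replicate 1 (0.13 to 0.15).

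EIF4A1, the paralogue of EIF4A2, was at 34.7 and 35.9 CPM with anti-M8nAb against 31.3 and 29.3 CPM with IgG at 12 h, and at 27.3 and 29.6 CPM against 27.7 and 28.3 CPM at 24 h. It passed at neither time. Since 47.4% of its exons are shared with annotated read-through and small nucleolar RNA genes on the same strand, and its 13 pseudogenes held 33.7 to 45.4% as many counts as the gene, the share of EIF4A2 in the summed FPKM of the pair, 93.5 to 95.2% over the 8 libraries, cannot be taken as the true ratio. EIF4A3, the helicase of the exon junction complex, fell by 0.16 at 12 h (adjusted p = 0.018) and by 0.19 at 24 h (adjusted p = 0.0046). Its earlier call was lost without either anti-M8nAb 12 h replicate or IgG 12 h replicate 2 (-0.17 to -0.10) and its later one without IgG 24 h replicate 2 (-0.15).

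The cap-binding protein gene EIF4E was at 135 and 125 CPM with anti-M8nAb against 128 and 132 CPM with IgG at 12 h, and at 131 and 139 CPM against 126 and 111 CPM at 24 h. The libraries overlapped at 12 h and separated at 24 h, where the log2 change was 0.19 (adjusted p = 0.013, SE 0.06), a call lost without anti-M8nAb 24 h replicate 2 or IgG 24 h replicate 2 (0.10 to 0.14). Its relative EIF4E2, which binds the cap without eIF4G, was at 159 and 157 CPM against 143 and 149 CPM at 12 h, and at 147 and 144 CPM against 141 and 139 CPM at 24 h, and passed at neither time.

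The main scaffold gene EIF4G1 was at 837 and 784 CPM with anti-M8nAb against 777 and 797 CPM with IgG at 12 h, and at 810 and 705 CPM against 738 and 768 CPM at 24 h, with overlap at both times and log2 changes of 0.04 and 0.01. EIF4G3 was at 145 and 137 CPM against 143 and 146 CPM at 12 h, and at 172 and 163 CPM against 147 and 146 CPM at 24 h. It rose at 24 h by 0.19 (adjusted p = 0.0052, SE 0.06). EIF4G2, whose product lacks the eIF4E-binding part and serves cap-independent initiation, rose by 0.15 (adjusted p = 0.0042, SE 0.04) and 0.12 (adjusted p = 0.016, SE 0.04). The EIF4G3 call was lost without anti-M8nAb 24 h replicate 1 (0.16), and those of EIF4G2 without IgG 12 h replicate 1 at 12 h (0.15) and without anti-M8nAb 24 h replicate 1 or IgG 24 h replicate 2 at 24 h (0.07 to 0.10).

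Of the 2 repressors that hold eIF4E away from eIF4G, EIF4EBP1 fell and EIF4EBP2 passed at neither time. EIF4EBP1 was at 80.9 and 72.6 CPM with anti-M8nAb against 87 and 91.8 CPM with IgG at 12 h, and at 78.2 and 81.1 CPM against 91.2 and 101 CPM at 24 h. All antibody libraries were below all IgG libraries, with log2 changes of -0.22 (adjusted p = 0.012, SE 0.07) and -0.27 (adjusted p = 0.0013, SE 0.07). The 12 h call was lost without anti-M8nAb 12 h replicate 2 (-0.14) or IgG 12 h replicate 2 (-0.17). EIF4EBP2 was at 417 and 418 CPM against 396 and 397 CPM at 12 h, and at 416 and 418 CPM against 397 and 391 CPM at 24 h. EIF4EBP2 made up 37.7 and 40.3% of the summed FPKM of the pair with anti-M8nAb against 34.8 and 33.7% with IgG at 12 h, and 38.4 and 37.7% against 33.9 and 31.3% at 24 h.

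PABPC1, the main cytoplasmic poly(A)-binding protein gene, which links the mRNA tail to eIF4G, rose at both times. It stood at 1822 and 1735 CPM with anti-M8nAb against 1517 and 1489 CPM with IgG at 12 h, and at 1960 and 1971 CPM against 1536 and 1515 CPM at 24 h. The log2 change was 0.24 (adjusted p = 4.8e-06, SE 0.04) and 0.37 (adjusted p = 3.3e-10, SE 0.04), calls that held in every alternative run. PABPC4 was at 362 and 346 CPM against 346 and 336 CPM at 12 h, and at 346 and 339 CPM against 330 and 341 CPM at 24 h, overlapping at both times.

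All 3 genes of eIF5A and eIF6 were higher at 24 h, and 1 of the 3 at 12 h, while on total counts 1 was higher at 24 h (EIF5A2) and 0 at 12 h. With TMM 31.0% of genes of at least 10 FPKM were higher at 24 h and 25.5% at 12 h. EIF5A, whose product carries the amino acid hypusine and helps stalled ribosomes on, was at 958 and 937 CPM with anti-M8nAb against 843 and 872 CPM with IgG at 12 h, and at 929 and 924 CPM against 803 and 833 CPM at 24 h. Its log2 change was 0.14 (adjusted p = 0.0090, SE 0.04) and 0.18 (adjusted p = 7.0e-04, SE 0.04). The rarer isoform gene EIF5A2, on chromosome 3 (170888418 to 170908644), was at 6.92 and 8.92 CPM against 6.08 and 6.3 CPM at 12 h, and at 11.8 and 13.6 CPM against 8.48 and 6.48 CPM at 24 h. It rose at 24 h by 0.77 (adjusted p = 1.3e-04, SE 0.16), the largest rise of the 56 genes, while at 12 h its 0.36 (adjusted p = 0.12, SE 0.17) did not pass. Its share of the summed FPKM of the pair stayed under 1% in every library, at 0.611 and 0.71% with anti-M8nAb against 0.509 and 0.375% with IgG at 24 h. EIF6, which keeps free large subunits apart from small ones, rose at 24 h by 0.18 (adjusted p = 0.014, SE 0.06), with 17.3% of its exons shared with a gene on the same strand. The 12 h call of EIF5A was lost without anti-M8nAb 12 h replicate 1 or IgG 12 h replicate 1 (0.12 to 0.13), and the EIF6 call without anti-M8nAb 24 h replicate 2 or IgG 24 h replicate 1 (0.11 to 0.14).

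**Figure D3:**
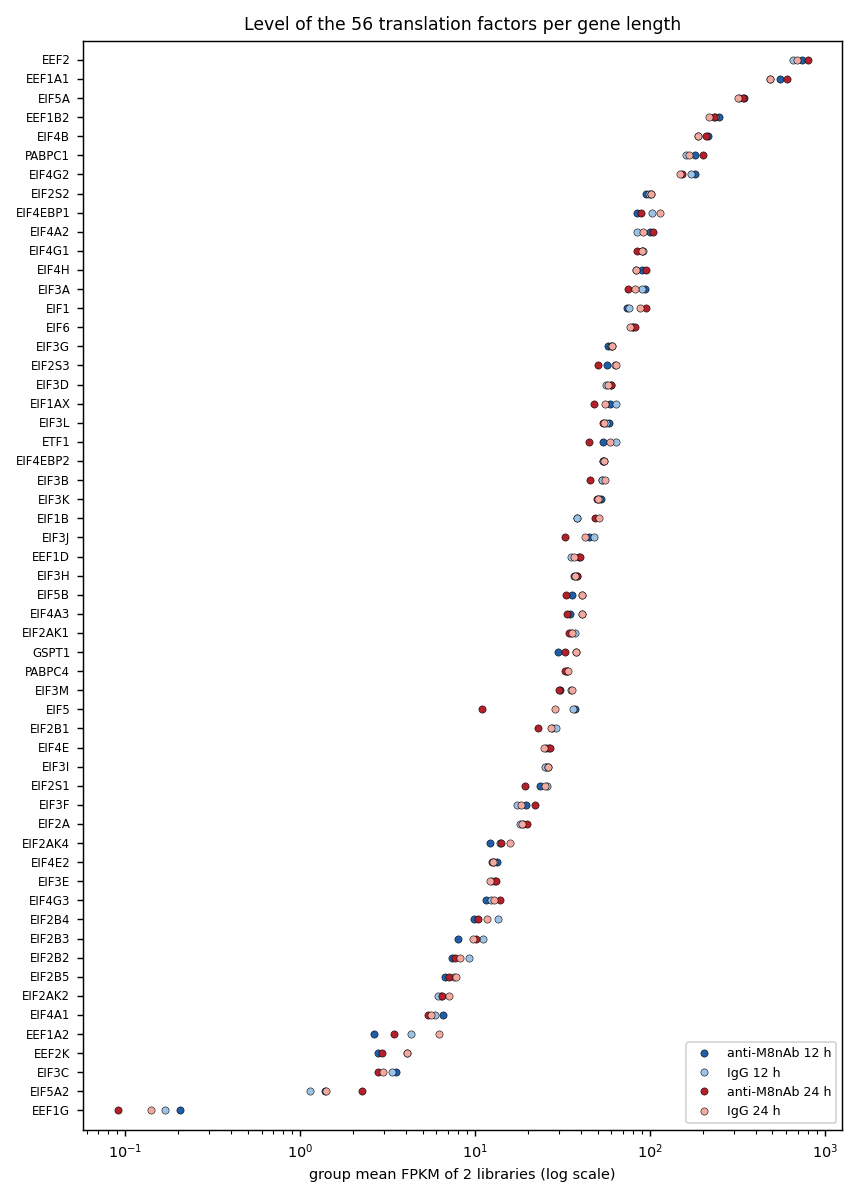
Mean FPKM (fragments scaled to exon length and library size, log axis) of the 2 libraries of each group, 1 row for each of the 56 genes, ordered by the mean over all 8 libraries. The genes run from EEF2 at 719 FPKM down to EEF1G at 0.151 FPKM, and the 4 groups of a gene lie close together except for EIF5, EEF1A2, EIF5A2 and EEF1G.

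Compared per length, the levels of the factors spanned more than the responses did. Mean FPKM over the 8 libraries was 719 for EEF2, 531 for EEF1A1, 330 for EIF5A, 233 for EEF1B2, 199 for EIF4B, 177 for PABPC1 and 162 for EIF4G2, and the next gene, EIF2S2, was at 99.2. In the lower part of the order stood the eIF2B subunits, between 7.29 FPKM for EIF2B5 and 26.5 FPKM for EIF2B1, and EEF1A2 at 4.14, EEF2K at 3.47 and EIF5A2 at 1.54 FPKM. The authors' FPKM divide by the exon length of a gene. EEF1A1, for which the annotation joins 10063 bases of exon against 4021 for EEF2, may therefore stand too low in this order, as may EIF3E with 37761 bases of exon. The 7 genes above 100 FPKM were all called higher at both times with TMM, and on total counts EIF5A, EEF1B2 and EIF4G2 at neither. Over all genes tested 10.1% were called higher at both times with TMM. At 12 h 15.8% of all genes and 25.5% of those of at least 10 FPKM were higher. The share among all genes above 100 FPKM was not worked out. In the IgG libraries at 12 h EEF2 had 652 and 652 FPKM and EEF1A1 488 and 485 FPKM, so that these 2 did not overlap, while EIF4B with 183 and 189 FPKM was above PABPC1 with 161 and 157 FPKM.

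Summed over all 56 genes, the share of the counts over genes was 2.54 and 2.47% with anti-M8nAb against 2.37 and 2.37% with IgG at 12 h. At 24 h it was 2.53 and 2.53% against 2.36 and 2.36%. Such a share is a scaling by total counts, and the most abundant genes weigh most in it. In replicate 1 at 24 h EEF1A1 held 127152 of 531860 member counts with anti-M8nAb and 105974 of 512843 with IgG. On total counts more members fell than rose, with 7 higher and 13 lower at 12 h, and 8 and 18 at 24 h. With TMM scaling the 7 elongation genes summed to 9947 and 9407 CPM with anti-M8nAb against 8255 and 8262 CPM with IgG at 12 h, and to 10388 and 10360 CPM against 8040 and 8236 CPM at 24 h. The 9 genes of the ternary complex and start site summed to 1951 and 1957 CPM against 1974 and 1991 CPM at 12 h, and to 1689 and 1740 CPM against 1962 and 1839 CPM at 24 h. With 2 libraries against 2 an exact permutation test cannot go below p = 0.333, and none was run on these sums.

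Set by the starts printed above, the members gave these counts. Of the 11 genes with a pyrimidine start, 7 rose and 1 fell at 12 h (EIF3D, EIF3F, EIF4A2, EIF4B, EEF1A1, EEF1B2 and EEF2 against EIF3M), and 8 rose and 2 fell at 24 h, when EIF2A joined the first and EIF2S3 the second. Of the other 33 genes with a promoter window, 3 rose and 8 fell at 12 h, and 8 rose and 10 fell at 24 h. On total counts 5 of the 11 rose and 2 fell at each time, while of the 33 genes 0 and then 2 rose and 9 and then 13 fell. The median log2 change of the 11 genes was 0.15 at 12 h and 0.19 at 24 h, and it stayed above 0 on total counts, at 0.09 and 0.11. For the 33 genes it was 0.02 and -0.01, and -0.04 and -0.09 on total counts. Across all 906 tested genes with such a start 19.5% rose and 19.8% fell at 12 h, and 29.8% and 21.1% did so at 24 h. These counts are descriptions, since the starts were looked at with the members' responses known.

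A list of TOP mRNAs, drawn from knowledge of other cells, names EEF1A1, EEF1B2, EEF1D, EEF1G, EEF2, EIF3A, EIF3E, EIF3F, EIF3H, EIF4B and PABPC1, of which 7 rose and 0 fell at 12 h, and 8 rose and 0 fell at 24 h. Of the other 45 members 5 rose and 11 fell at 12 h, and 11 rose and 14 fell at 24 h. On total counts 6 and then 5 of the 11 rose, while 0 and then 1 fell. With TMM 25.5% of genes of at least 10 FPKM rose and 17.7% fell at 12 h, and 31.0% and 23.5% at 24 h. EEF1G is on the list but could not be judged. EIF3M and EIF2S3, printed above with a pyrimidine start and called lower at 24 h, are not on it. These counts too are descriptions. The E-box CACGTG, a palindrome, lay in the 300-base windows of 12 of the 44 members (27.3%), against 8.78% of all symbols and 11.8% of those tested. The motif TGATGNAA, searched on both strands, was found in 0 of the 44 members, in 4.46% of all symbols and in 2.83% of those tested.

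**Figure D4:**
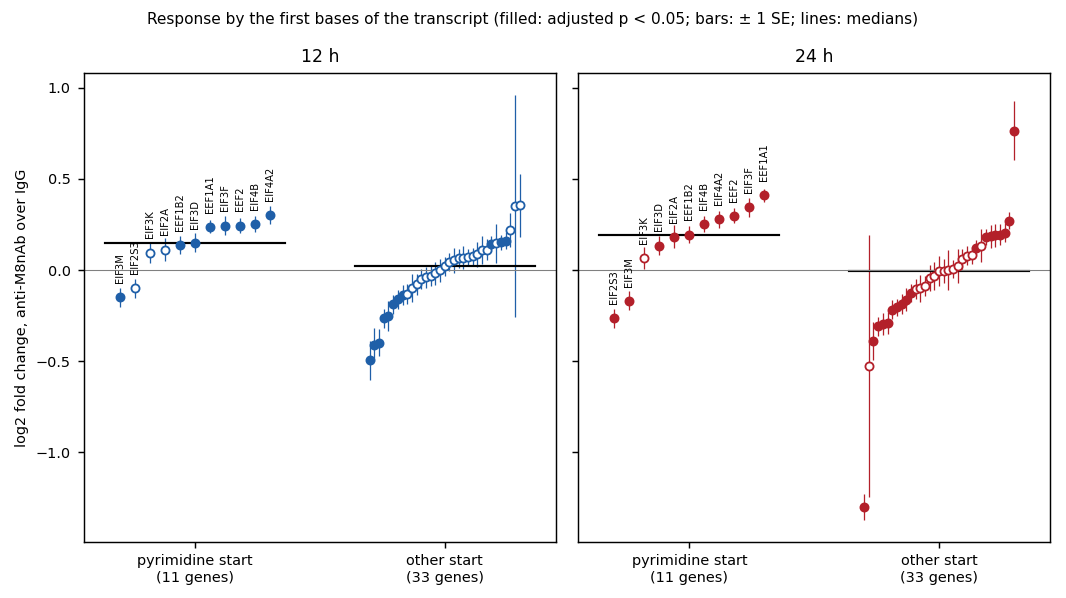
Log2 fold change, anti-M8nAb over IgG, of the 11 members with a pyrimidine start (left in each panel, named) and of the 33 members with another start (right), at 12 h and at 24 h, each point with a bar of 1 SE, filled where the adjusted p was under 0.05, and a line at the median. The medians are 0.15 and 0.19 for the 11 genes and 0.02 and -0.01 for the 33 genes, and on total counts 0.09 and 0.11 for the 11 genes and -0.04 and -0.09 for the 33 genes.

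IgG cells alone were also compared between the times. At 24 h 3 members were higher than at 12 h (EIF1, EIF1B and EEF1A2) and 7 lower (EIF1AX, EIF5, EIF2B4, EIF3A, EIF3J, EIF4G2 and EEF1B2), against 7.01% of all genes higher and 6.64% lower, and 6.5% and 12.4% of the genes of at least 10 FPKM. The count of 7 came to 3 when IgG 12 h replicate 1 was left out, 2 for IgG 12 h replicate 2 and 3 for IgG 24 h replicate 2. EIF1B was at 94.3 and 92 CPM in IgG cells at 24 h against 72.4 and 70.4 CPM at 12 h, a log2 change of 0.38 (adjusted p = 6.0e-05, SE 0.07). The response to the antibody differed between the times in 5 members, with a log2 change that was higher at 24 h than at 12 h in EIF2B3 and EEF1A1 (3.57%) and lower, that is more negative, in EIF5, EIF3B and EIF3J (5.36%), against 5.79% and 6.54% of all genes and 8.24% and 9.36% of those of at least 10 FPKM. The count of 2 came to 1 when any 1 of 4 libraries was left out (anti-M8nAb 12 h replicate 2, either IgG 12 h replicate or IgG 24 h replicate 2).

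Another 56 genes of translation control, listed by role, had 9 that rose (16.1%) and 7 that fell (12.5%) at 12 h, and 14 of each (25.0%) at 24 h, against 15.8% and 16.4% of all genes tested at 12 h and 21.2% and 21.3% at 24 h. On total counts 8 rose and 12 fell at 12 h, and 10 rose and 17 fell at 24 h. Among the 5 genes of eIF2 phosphorylation and its reversal 3 rose and 0 fell at each time. EIF2AK3 encodes PERK, the eIF2 kinase of the endoplasmic reticulum and the only one of the 4 eIF2 kinases that is no member. It was at 43.7 and 42.6 CPM with anti-M8nAb against 35.1 and 31.8 CPM with IgG at 12 h, and at 92.0 and 93.4 CPM against 47.3 and 44.3 CPM at 24 h. Its log2 change was 0.37 (adjusted p = 4.1e-04, SE 0.08) and 1.02 (adjusted p = 3.0e-15, SE 0.08), a gain of 102% at 24 h, while the 3 kinases among the members passed at neither time. PPP1R15A, the stress-induced subunit of the eIF2 phosphatase, was at 13.3 and 9.4 CPM against 12.8 and 13.7 CPM at 12 h, and at 24.4 and 32.2 CPM against 18.7 and 21.1 CPM at 24 h, with log2 changes of -0.22 (adjusted p = 0.25) and 0.51 (adjusted p = 9.8e-04, SE 0.13), the 24 h call being lost without anti-M8nAb 24 h replicate 2 (0.29). IMPACT, an inhibitor of the activation of GCN2, rose by 0.33 and 0.35.

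Of the 11 genes of initiation, recycling and rescue, 0 rose and 2 fell at 12 h, and 2 rose and 5 fell at 24 h. On total counts 0 and then 1 rose, and 3 and then 5 fell. With TMM 15.8% of all genes tested rose and 16.4% fell at 12 h, and 21.2% and 21.3% at 24 h. BZW2, a relative of eIF5 that competes with it for eIF2, was at 87.6 and 82.4 CPM with anti-M8nAb against 99 and 102 CPM with IgG at 12 h, and at 65.6 and 77.4 CPM against 98.9 and 93 CPM at 24 h. It fell by 0.24 (adjusted p = 0.0062) and by 0.42 (adjusted p = 3.0e-06, SE 0.07). The helicase gene DDX3X had a log2 change of 0.04 at 12 h (adjusted p = 0.61) and fell by 0.21 at 24 h (adjusted p = 4.1e-04), and ABCE1, which splits ribosomes after termination, rose at 24 h by 0.21 (adjusted p = 0.0027). The calls lost were that of BZW2 at 12 h without anti-M8nAb 12 h replicate 2 or IgG 12 h replicate 2 (-0.21 to -0.19), of DDX3X without anti-M8nAb 24 h replicate 2 (-0.14) and of ABCE1 without IgG 24 h replicate 2 (0.10).

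Of the 16 modulators of cap and tail, 2 rose and 4 fell at 12 h, and 4 rose and 3 fell at 24 h. On total counts 2 rose each time, and 6 and then 5 fell. With TMM 15.8% of all genes tested rose and 16.4% fell at 12 h, and 21.2% and 21.3% at 24 h. RPS6KB1, the S6 kinase gene downstream of mTOR, was at 60.6 and 64.3 CPM with anti-M8nAb against 44 and 41.9 CPM with IgG at 12 h, and at 51.6 and 47.7 CPM against 35.8 and 34.9 CPM at 24 h. It rose by 0.54 (adjusted p = 5.3e-07, SE 0.08) and 0.49 (adjusted p = 3.3e-06, SE 0.08). Of the regulators of PABPC1, the activator PAIP1 rose at 24 h by 0.40 (adjusted p = 4.3e-07), and the inhibitor PAIP2B fell by 0.32 at 12 h (adjusted p = 0.011) and by 0.55 at 24 h (adjusted p = 1.1e-05). The other inhibitor, PAIP2, fell by 0.20 and 0.25, and LARP1, the protein that binds TOP tracts, rose by 0.24 and 0.16, both named after their values were seen. At 12 h PAIP2B was not called without anti-M8nAb 12 h replicate 1 or either IgG 12 h replicate (-0.33 to -0.30), nor PAIP2 without anti-M8nAb 12 h replicate 2 or IgG 12 h replicate 1 (-0.18), nor at 24 h LARP1 without anti-M8nAb 24 h replicate 1 (0.12) or on total counts.

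The 14 enzymes and partners of elongation and termination had 3 that rose and 1 that fell at 12 h, and 3 that rose and 4 that fell at 24 h. On total counts 3 rose each time, and 2 and then 5 fell. With TMM 15.8% of all genes tested rose and 16.4% fell at 12 h, and 21.2% and 21.3% at 24 h. HABP4, whose product binds idle ribosomes, was at 52.6 and 48.3 CPM with anti-M8nAb against 30 and 28.5 CPM with IgG at 12 h, and at 70.6 and 71.5 CPM against 33.5 and 34.4 CPM at 24 h. The log2 change was 0.79 (adjusted p = 2.5e-10, SE 0.08) and 1.07 (adjusted p = 5.1e-15, SE 0.08). Of the HABP4 exons 26.8% overlap a gene on the other strand, and whether the counting used strand is not given. GSPT2, the intronless copy of GSPT1, was at 49 and 48.1 CPM against 55.5 and 53.2 CPM at 12 h, and at 34.2 and 30.2 CPM against 54.3 and 59.1 CPM at 24 h. At 24 h it fell by 0.82 (adjusted p = 4.1e-11, SE 0.08), in the same direction as GSPT1 and ETF1. EEF2KMT, which methylates eEF2, fell at 24 h by 0.49 (adjusted p = 1.3e-05, SE 0.09), and 31.4% of its exons overlap a gene on the other strand. The 10 mitochondrial translation factors had 1 that rose and 0 that fell at 12 h, and 2 that rose and 2 that fell at 24 h. On total counts 1 of the 10 rose each time, and 1 and then 2 fell. Among those called at 24 h with TMM were MTIF2 with 0.39 (adjusted p = 3.7e-05) and the release factor genes MTRF1 with -0.64 (adjusted p = 8.1e-04) and MTRF1L with -0.37 (adjusted p = 0.0042). Of the MTRF1L exons 37.8% overlap a gene on the other strand.

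**Figure D5:**
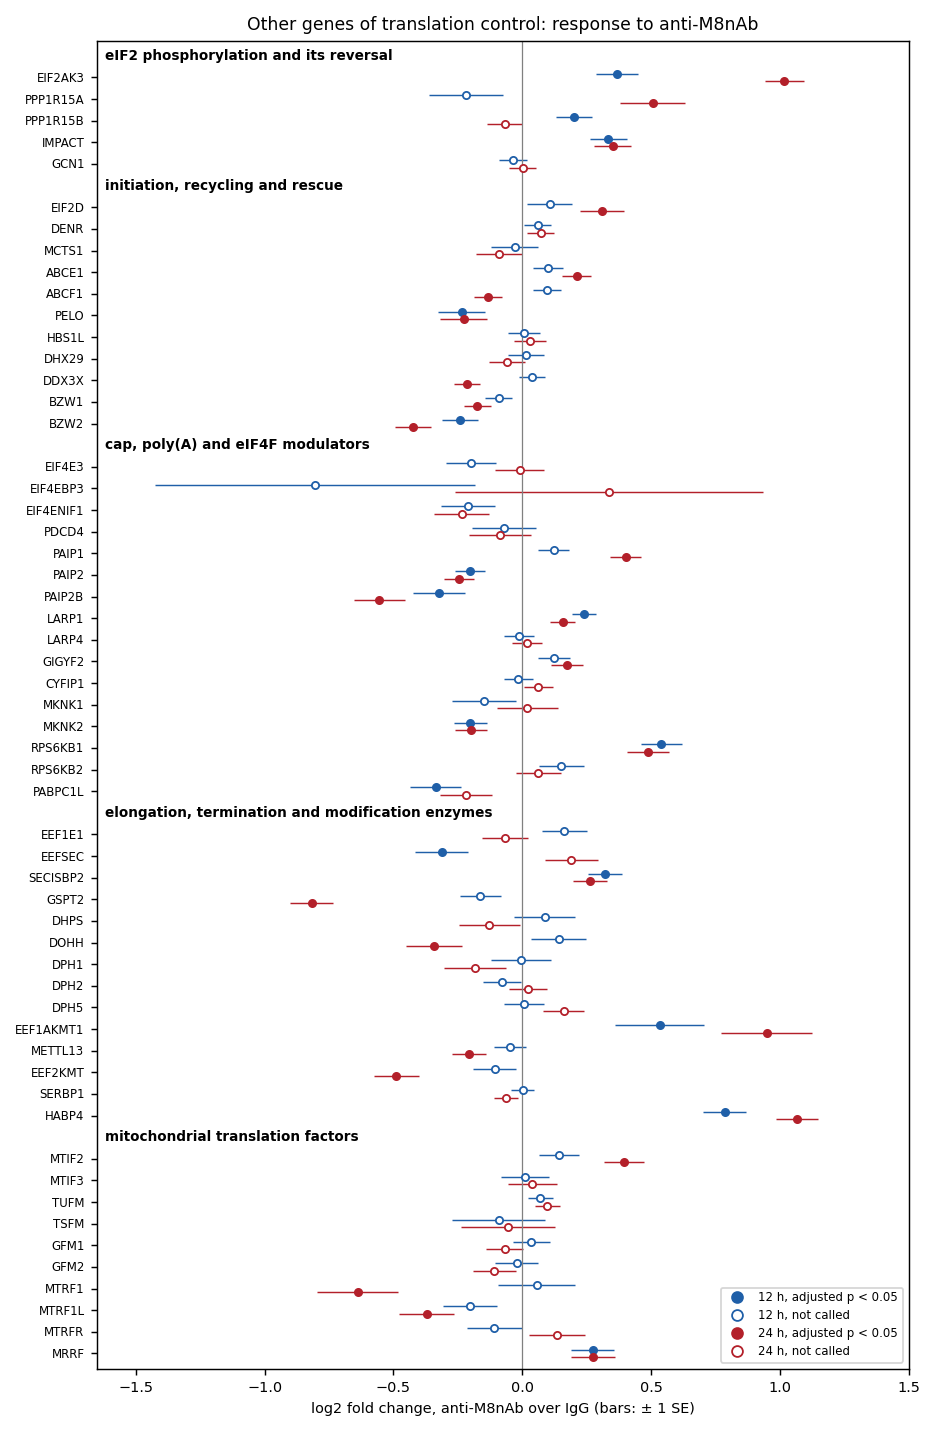
Log2 fold change, anti-M8nAb over IgG, with bars of 1 SE, of 56 further genes of translation control in 5 lists, 12 h in blue and 24 h in red, filled where the adjusted p was under 0.05. EIF2AK3 at 1.02 and HABP4 at 1.07 lie farthest to the right at 24 h, and GSPT2 at -0.82 farthest to the left among the filled points.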

How the data were processed

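Reads were trimmed (Trimmomatic), mapped by the authors to GRCh38.p14 in the 2-pass mode of STAR, freed of duplicates (Picard) and assigned to Ensembl genes with HTSeq. FastQC 0.11.9 stands in the submitters' processing notes. The deposited count table holds raw counts per gene, and the FPKM table was made by the authors with RNAnorm. Removal of duplicates can lower the counts of abundant genes, and whether counting used strand is not given in the sources used here. All 62086 gene identifiers were matched to symbols of GENCODE release 44, 61100 of them with their version. Left out were 4 further columns of each table and 1005 lines with no gene name, which hold 53.3 to 54.1% of all counts of a library.

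Genes with enough counts (filterByExpr, 20165 genes) entered 1 edgeR model (version 4.0.16, R 4.3.3) of all 8 libraries with TMM factors and 4 group means. The quasi-likelihood F test (two-sided) compared anti-M8nAb with IgG at 12 h and at 24 h, the 2 responses with each other, and IgG at 24 h with IgG at 12 h, with Benjamini-Hochberg adjustment over all genes tested and a threshold of 0.05. The script was tested on simulated data. Between replicates the variance was 2.28 to 4.50 times that of counting alone. The members, the role groups and the lists of other genes were chosen with earlier results of these data known, so no p is adjusted over a list alone.

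Values per library are given for most of the members with the smallest adjusted p on each side of each role group. They are not given for EIF5B, EIF3M, EIF4A3 and EIF2B1, each the only gene of its role group called lower at 12 h, at 24 h or at both. They are also given for members called with a log2 change of at least 0.5 in size, for 8 paralogue pairs and for members whose response differed between the times. Of each other list up to 3 genes have such values. The overlap of a gene's exons with other genes is given for the translation genes named, where it was 10% or more. Not given above are overlaps with genes on the other strand for 10.8% of the exons of EIF5B, 10.9% of PABPC4, 10.4% of EIF4E2 and 10.7% of EIF3L. Nor are those for 21.0% of the exons of PAIP2 and 14.3% of EEFSEC. Promoter sequences and starts come from RefSeq (GRCh38.p14). The alternatives were DESeq2 size factors in edgeR, no filter, a mean of at least 1 CPM, protein-coding genes alone, DESeq2 1.42.0, each time alone, a replicate block, each library left out in turn, and limma 3.58.1 on log2(FPKM + 1) or log2(FPKM + 0.1) with a mean of at least 0.5 FPKM or on log2(FPKM + 1) with no filter. Chosen after seeing the data were total counts in place of TMM and a block with the replicate numbers of IgG at 24 h crossed.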

Additional observations from a re-analysis of the deposited data

Results flagged for a closer look

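The response to anti-M8nAb differed between the times in 5 of the 56 genes, by the test of the difference itself (response at 24 h minus response at 12 h on the log2 scale, edgeR quasi-likelihood test with Benjamini-Hochberg adjustment over all genes). EIF5, the GTPase-activating protein of eIF2, had a difference of -1.39 and EIF3B one of -0.27, with lower values in anti-M8nAb cells at 24 h in 2 of 2 libraries against both IgG libraries. EIF3J had -0.26, EIF2B3 0.54 and EEF1A1 0.17.

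Of the other genes of translation control, 10 passed the same test. EIF2AK3, the kinase PERK, had a difference of 0.65 (adjusted p = 3.7e-05), PPP1R15A 0.73 (adjusted p = 0.0073), PAIP1 0.28 (adjusted p = 0.023) and EEFSEC, the elongation factor for selenocysteine, 0.50 (adjusted p = 0.015). Below 0 lay GSPT2 with -0.65 (adjusted p = 6.7e-05), MTRF1 with -0.70 (adjusted p = 0.026), DOHH, an enzyme of hypusine synthesis, with -0.48 (adjusted p = 0.027), EEF2KMT with -0.38 (adjusted p = 0.030), DDX3X with -0.25 (adjusted p = 0.011) and ABCF1 with -0.23 (adjusted p = 0.043). EIF2AK3 and GSPT2 kept their call whichever library was left out, and the other 8 of these 10 lost it without some 1 library, among them PPP1R15A (0.50 to 0.66 without 1 of 4 libraries) and MTRF1 (-0.77 to -0.56 without 1 of 5).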

How the results depend on the processing

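No call of a member turned its direction in any alternative, and 5 of the 23 calls at 12 h (EIF2B3, EIF2B4, PABPC1, EEF1A2 and GSPT1), 12 of the 33 at 24 h and 2 of the 5 differences between the times (EIF5 and EIF3B) held in every one. Total counts gave 7 members higher at 12 h and 8 at 24 h, with medians of -0.001 and -0.0413, against 12, 19, 0.06 and 0.05 with TMM. The limma alternatives gave medians of -0.0068, -0.0069 and, without filter, -0.0013 at 12 h, and -0.0249, -0.0267 and -0.0395 at 24 h, with 6, 6 and 1 members higher at 12 h and 8, 8 and 3 at 24 h. FPKM carry no TMM factor. Limma without filter covered 41621 genes and lost 15 of the 23 calls at 12 h and 17 of the 33 at 24 h. The edgeR run without filter covered 41621 genes as well and lost 4 and 6. What lowered the limma counts was not tested. Differences between the times (24 h minus 12 h) were above 0 and called in 4 members with a mean of at least 1 CPM or with protein-coding genes alone, and in 1, 1 and 0 with limma, against 2. In IgG cells alone 3 members were lower at 24 h with no filter or on total counts and 1, 1 and 0 with limma, against 7, and limma with no filter gave 1 higher, against 3.

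For the other genes of the pathway, limma gave 5, 5 and 3 higher at 12 h and 7 each time at 24 h, against 9 and 14, and 3 lower at 12 h with no filter, against 7, where total counts gave 12. Without 1 library the members had 7 to 14 higher and 5 to 12 lower at 12 h, 13 to 20 and 11 to 14 at 24 h, 1 to 3 and 2 to 4 for the difference, and 2 to 3 and 2 to 8 in IgG cells, while medians stayed at 0.0559 to 0.0679 and 0.0389 to 0.0615. The other genes had 6 to 9 higher and 1 to 7 lower at 12 h, and 11 to 14 and 9 to 14 at 24 h. Where a group is left with 1 library, that library is assumed to vary like the others. The replicate block left the counts as they were, at 12 higher and 11 lower at 12 h and 19 and 14 at 24 h. The labels give no further link between samples with the same number. Their deviations correlated by -0.123 to 0.0711 over 11249 genes, which cannot settle whether such samples shared a culture or run. With the crossed pairing the counts were 12 and 11, and 19 and 14, and 3 and 3 for the difference. The smallest log2 change called among the members was -0.14 at 12 h (EIF5B) and 0.12 at 24 h (EIF4G2).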
